A study of Mus musculus with 13 samples.

Results

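The 13 germ cell libraries of the study came from 2 breeding schemes, and the comparison described here sets the 7 libraries of the conditional cross against the 6 libraries of the constitutive cross. Membership followed the labels alone: cKO (n = 4) and flox (n = 3) embryos form the conditional cross, and KO (n = 3) and WT (n = 3) embryos the constitutive cross, so all 13 of the 13 libraries were used. Each library held germ cells sorted by their *Pou5f1*-GFP reporter from the ovaries of a single E17.5 embryo and was profiled by 3' Tag-Seq, which places its reads close to the 3' ends of transcripts and counts them by gene. In the conditional cross the dams were *Nr3c1* flox/flox, with loxP sites around exon 3 of the gene for the glucocorticoid receptor (GR), and every dam received tamoxifen at 125 µg/g on E10.5. The cKO embryos carried a tamoxifen-inducible Cre driven from the *Pou5f1* locus, and the flox embryos were Cre-negative controls exposed to the same tamoxifen, although the strain label lists the Cre allele for both groups. In the constitutive cross heterozygous parents gave KO embryos, which lack exon 3 in every cell, and WT embryos, and no tamoxifen was mentioned for these dams. All 13 embryos shared the *Pou5f1*-EGFP transgene. The crosses therefore differed in tamoxifen, in the loxP alleles, in the Cre line and in any handling that went with each cross. GR-deleted embryos also differed in where GR was lost, from germ cells in cKO and from every cell in KO. In these data those differences cannot be told apart. GR status was balanced over the crosses and entered the model as a covariate: deleted in cKO and KO, intact in flox and WT. The labels call the libraries biological replicates and give no litter, so p-values measure the spread between these libraries.

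At E17.5 the mouse ovary holds oocytes that have entered meiosis and are moving through the later stages of its first prophase, with chromosome axes and synaptonemal complexes in place and growth into follicles still ahead. Tamoxifen is a ligand of oestrogen receptors. It frees the Cre-oestrogen receptor fusion from heat shock protein chaperones, and it is also known to act on sterol synthesis. Ubiquitin, the small protein that tags other proteins for the proteasome, is made from polyubiquitin genes such as *Ubb* and from fusion genes such as *Rps27a*.

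Depth overlapped between the crosses. The libraries held 2048706 to 2888881 counts in the conditional cross, median 2513724, and 2082062 to 3674989 in the constitutive cross, median 2406783 (exact permutation test over all 1716 divisions of the libraries, two-sided, p = 0.855). After thinning to 2048706 counts, 13119 to 15566 genes were detected in the conditional cross and 12725 to 14278 in the constitutive cross (exact permutation p = 0.303). Pairs of libraries were as alike between crosses as within them: the median correlation across genes, which are not independent replicates, was 0.784 between crosses, 0.792 within the conditional cross and 0.780 within the constitutive cross. Of the first 4 principal components over the 7176 genes that averaged 50 counts or more, component 2, holding 11.5% of the variance, placed all 7 conditional libraries on one side of the 6 constitutive libraries, and components 1, 3 and 4 overlapped. Library KO 3 stood farthest out on component 1 and library flox 1 on component 2, so counts of calls are also given without both.

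Across all genes, a single transcript separated the germ cells of the crosses past the threshold. Of 13086 genes tested, 1 passed an adjusted p of 0.05, which is 0.00764% (edgeR quasi-likelihood test with Benjamini-Hochberg adjustment): *Ubb*, higher in the conditional cross, with no gene lower. The call was lost when the counts of *Ubb* were summed with those of the pseudogenes that share its sequence, a sum that adds counts of a similar level to both crosses. At an unadjusted p under 0.05 there were 587 genes (4.49%), of which 320 were higher (2.45%) and 267 lower (2.04%). The libraries of the crosses did not overlap for 21 genes (0.16%), 13 of them higher (0.0993%) and 8 lower (0.0611%). Divided at random, the libraries of a gene separate with a probability of at most 0.00117, the smallest p of the exact permutation test. The median log2 fold change over all genes was 0.02. Without flox 1 and KO 3 together, 3 genes were called, all higher: *Ubb*, *Ppp2r5a* and *Mrvi1*.

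*Ubb* (chromosome 11, 62551171-62553213, mm10), a polyubiquitin gene, had 897 to 1773 counts in the conditional libraries, median 1201, and 7 to 46 in the constitutive libraries, median 23. No constitutive library came near the lowest conditional one. Its mean level was 510 ± 133 CPM (counts scaled to the size of the library; SD, n = 7) against 9.36 ± 4.67 (n = 6), a log2 fold change of 5.75 (SE 0.33, adjusted p = 2.08e-11, edgeR) or 54.0-fold. The libraries were apart with GR intact (flox over WT, log2 fold change 6.09, SE 0.47) and with GR deleted (cKO over KO, 5.46, SE 0.45), and the difference of these effects was -0.64 (SE 0.55, unadjusted p = 0.262, edgeR). The exact permutation test gave p = 0.00117, the smallest that 1716 divisions allow. None of the 10 nearest genes tested on chromosome 11 had an unadjusted p under 0.117. The nearest, *Cenpv*, had 168 CPM in the conditional cross and 161 CPM in the constitutive cross.

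The *Ubb* counts can depend on which copy of its sequence a read is given to, and this was not tested. In the GENCODE M21 transcripts, 412 of the 486 distinct 50-base windows in the last 300 bases of *Ubb* (84.8%) also occurred letter for letter in *Gm1821*, an annotated pseudogene on chromosome 14 (46084028-46085000), and 206 (42.4%) occurred in the pseudogene *Gm8797*. With 90-base windows the shares were 82.5% for *Gm1821* and 29.9% for *Gm8797*. The read length and the treatment of reads that match several places are not given in the sources used here. *Gm1821*, named because of this match and after its values were seen, had 776 to 1072 counts in the conditional libraries, median 899, and 770 to 1882 in the constitutive libraries, median 844.5. The ranges of the crosses overlapped, and WT 2 alone held 1882. Its mean was 360 ± 55.1 CPM (n = 7) against 436 ± 228 CPM (n = 6), a log2 fold change of -0.23 (SE 0.22, unadjusted p = 0.311, edgeR). *Gm8797* reached 13 counts in the conditional libraries and 0 in the constitutive ones, and *Gm12328*, *Gm37421* and *Gm8648*, which share a few windows, held at most 1 count in any library.

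Summed with these 5 genes, *Ubb* was no longer called. The added counts, nearly all from *Gm1821*, were of a similar level in both crosses, so a smaller fold change follows by construction. The sum was 1757 to 2747 counts in the conditional libraries, median 2124, and 802 to 1889 in the constitutive libraries, median 865. WT 2, at 903 CPM, lay inside the conditional range, and the other 5 constitutive libraries lay below it. The means were 871 ± 169 CPM and 446 ± 225 CPM, a log2 fold change of 1.01 (SE 0.22, adjusted p = 0.174, edgeR; exact permutation p = 0.00699), or 2.02-fold. It was 0.87 (SE 0.32) for flox over WT and 1.14 (SE 0.31) for cKO over KO. *Ubb* itself made up 51.1% to 65.4% of the sum in the conditional libraries and 0.371% to 3.94% in the constitutive libraries. With the sum in place of *Ubb*, 0 of 13085 genes were called by edgeR, and 587 had an unadjusted p under 0.05.

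**Figure D1:**
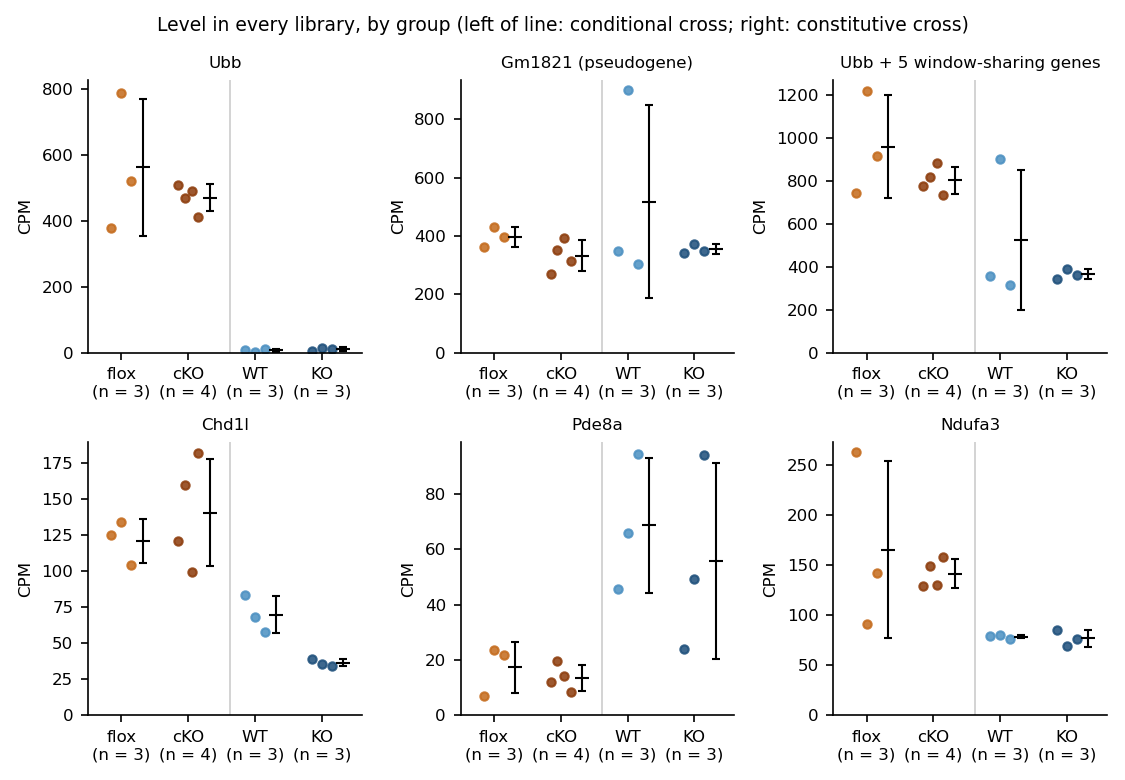
Level in CPM (vertical axis from 0) of *Ubb*, its pseudogene copy *Gm1821*, the sum of *Ubb* and the 5 genes that share its 50-base windows, *Chd1l*, *Pde8a* and *Ndufa3*; each point is a library and the dash with its bar is the group mean ± SD. *Ubb* sits at 379 CPM or more in all 7 conditional libraries and at 15.1 CPM or less in all 6 constitutive libraries, while *Gm1821* lies in the same range in both apart from WT 2.

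*Rps27a*, which makes ubiquitin fused to a ribosomal protein, had 253 to 1203 counts in the conditional libraries, median 688, and 86 to 1448 in the constitutive libraries, median 640. The ranges overlapped, and the log2 fold change was -0.09 (SE 0.37), with a sign that turned in some alternative fits. Among 27 tested genes of ubiquitin turnover (activating, conjugating, ligating and removing enzymes), 1 was at an unadjusted p under 0.05 (3.7%, beside 4.49% of all genes). It was *Ube2d1*, a conjugating enzyme (log2 fold change -1.24, SE 0.56, adjusted p = 1, edgeR). The list's median was 0.00 against 0.02 for all genes. Of 42 tested proteasome genes, 1 was higher and 1 lower at an unadjusted p under 0.05 (4.76%, beside 4.49% of all genes). The higher was the assembly chaperone *Psmd9* (1.06, SE 0.34, adjusted p = 0.856, edgeR). The lower was the base ATPase *Psmc1* (-0.54, SE 0.20, adjusted p = 0.925, edgeR). The proteasome median was 0.11.

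Below *Ubb*, the genes with the lowest p-values missed the threshold, and their values are given as such. *Chd1l*, a chromatin remodeler recruited in DNA repair, had 215 to 528 counts in the conditional libraries, median 302, and 73 to 212 in the constitutive libraries, median 122. On the CPM scale no library of either cross entered the range of the other. Its log2 fold change was 1.40 (SE 0.28, adjusted p = 0.174, edgeR), with an exact permutation p of 0.00117. Every gene without overlap has that permutation p, so it restates the separation. *Ppp2r5a*, a regulatory subunit of protein phosphatase 2A, had 273 to 817 counts, median 303, against 44 to 338, median 79, with KO 3 alone inside the conditional range. Its log2 fold change was 1.77 (SE 0.38, adjusted p = 0.174, edgeR). It was called once KO 3 was left out, which removes that overlap by construction. *Col1a1*, the collagen I chain of stromal cells and one of the somatic markers, had 94 to 487 counts, median 233, against 24 to 162, median 55, a log2 fold change of 1.99 (SE 0.41, adjusted p = 0.174, edgeR). It was called once WT 3 was left out, the constitutive library with the highest level.

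*Ndufa3*, a subunit of respiratory complex I, had 204 to 622 counts in the conditional libraries, median 372, and 141 to 281 in the constitutive libraries, median 176. In CPM its libraries did not overlap, at 90.6 to 263 against 68.6 to 85.5, and the log2 fold change was 0.97 (SE 0.24, adjusted p = 0.621, edgeR). *Xpc*, a damage sensor of nucleotide excision repair, was also apart in every library, at 46.5 to 105 CPM against 28.3 to 42.6 CPM, with a log2 fold change of 0.80 (SE 0.32, adjusted p = 1, edgeR). Several of the remaining high-ranking genes were near 0 in the constitutive cross. *Lyz2*, lysozyme of macrophages, had 0 to 84 counts in the conditional libraries, median 39, and 0 in all 6 constitutive libraries. It was at least 12.2-fold higher in the conditional cross with a floor of 3 counts per library. Its level was uneven within that cross, with a mean of 23.9 CPM for cKO and 3.77 CPM for flox. Flox 1, flox 2 and flox 3 held 0, 8 and 16 counts, fewer than any cKO library. The long noncoding RNA *9430078K24Rik* had 0 to 77 counts against 0 in all 6 constitutive libraries and was at least 7.03-fold higher. *1700104B16Rik*, another long noncoding RNA, had 6 to 48 counts in the conditional libraries and 3 counts in all in the constitutive ones, a ratio of 42.8 (95% counting interval 14.4 to 210). *Ap3b2*, a neuronal adaptor subunit, had 0 to 87 counts against 0 to 6. *Gm14513*, a processed pseudogene on the X chromosome, came from 3 libraries: cKO 4 had 262 counts, flox 2 had 170 and flox 3 had 254, while the other 4 conditional libraries were at 0 and the constitutive total was 2. Counting intervals and floors cover counting error only.

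On the lower side no gene passed the threshold over all 13 libraries. *Pde8a*, a phosphodiesterase that degrades cyclic AMP, had 16 to 53 counts in the conditional libraries, median 39, and 63 to 347 in the constitutive libraries, median 120. Its libraries did not overlap, which alone fixes the exact permutation p of 0.00117. The log2 fold change was -2.01 (SE 0.43, adjusted p = 0.174, edgeR). *Vgll4*, a cofactor of TEAD transcription factors, had 9 to 25 counts against 26 to 152, and its log2 fold change was -2.30 (SE 0.64, adjusted p = 0.844, edgeR). The pseudogene *Rps24-ps3* had 1 to 17 counts against 26 to 238 (log2 fold change -3.12, SE 0.73, adjusted p = 0.32, edgeR), and 48.6% of the 50-base windows in its last 300 bases also occurred in other genes.

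*Mcph1*, a regulator of chromosome condensation, *Taok2*, a stress-activated kinase, and the pseudogene *Gm6475* were also lower without overlap, with log2 fold changes of -0.61 (SE 0.21), -0.62 (SE 0.27) and -1.45 (SE 0.53). *Mcph1* overlaps other annotated genes over 36.9% of its interval, which can take reads from it. The remaining genes of low p were uneven within a cross. *Klhl1*, an actin-binding protein of neurons, had 162 to 270 counts in the 3 KO libraries but 8 to 29 in the 3 WT libraries, against 0 to 29 in the conditional cross. *Frmd8* had 1 count in all 7 conditional libraries together and 0 to 86 counts in the constitutive libraries, 230 times higher there (95% counting interval 40.7 to 9120). The pseudogene *Pisd-ps2* likewise had 1 count against 0 to 48. *Prex2*, *Ppp1r13b* and *Snx13* had log2 fold changes of -3.29 (SE 0.90), -1.48 (SE 0.38) and -1.18 (SE 0.33), and their libraries overlapped.

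**Figure D2:**
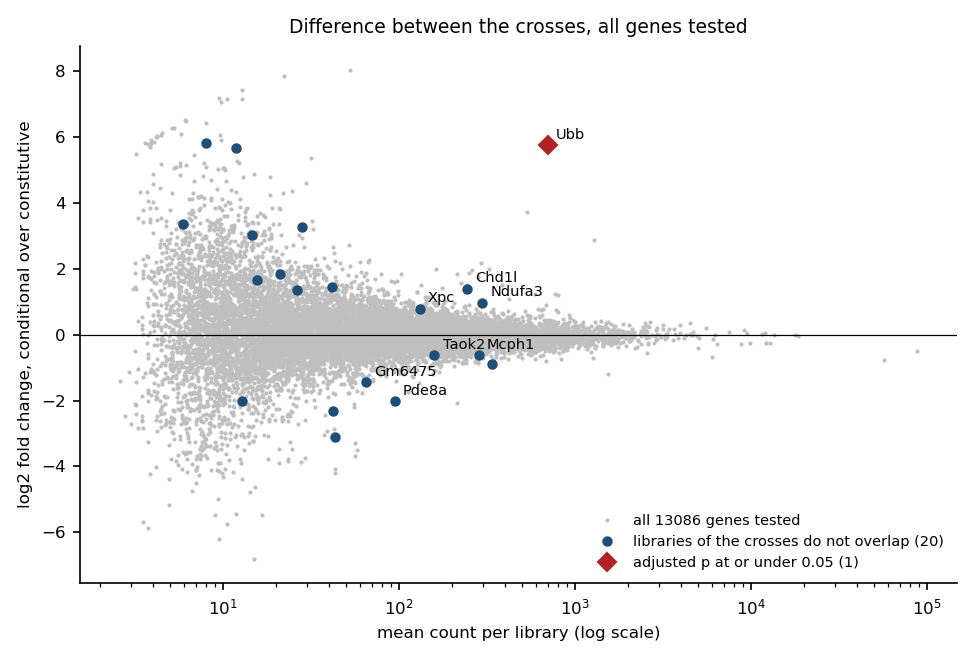
Log2 fold change of the conditional over the constitutive cross (vertical axis) against the mean count per library (horizontal axis, log scale) for the 13086 genes tested. The diamond is *Ubb*, the only gene called, and the 20 dark points are the other genes whose libraries do not overlap, with names beside those described in the text that have a mean count of at least 50; the scatter narrows as counts grow.

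The cross effect was then read separately in embryos whose germ cells kept GR and in those whose germ cells lost it, which share no library. Among the latter, cKO embryos lost GR in germ cells and KO embryos in every cell. That difference cannot be told apart from the cross. Among GR-intact embryos (flox against WT) 1 gene was called (0.00764%), and 400 had an unadjusted p under 0.05 (3.06%). Among GR-deleted embryos (cKO against KO) 1 gene was called (0.00764%), and 803 had an unadjusted p under 0.05 (6.14%). The gene was *Ubb* in both. No gene was called for the difference of these effects by edgeR (0%), with 574 at an unadjusted p under 0.05 (4.39%). *Pde8a* was lower by nearly the same amount in each state, -1.98 (SE 0.66) with GR intact and -2.04 (SE 0.60) with GR deleted, and *Col1a1* was at 1.88 (SE 0.59) and 2.09 (SE 0.58). *Ndufa3* was at 1.08 (SE 0.37) and 0.88 (SE 0.34). These genes were picked by their difference between the crosses in the same libraries, which favours effects of the same sign in both states. *Chd1l* had the lowest p for the difference among the non-overlapping genes: its mean was 121 ± 15.3 CPM in flox and 69.6 ± 12.9 CPM in WT, but 140 ± 37.4 CPM in cKO and 36.3 ± 2.53 CPM in KO, so the effect was 0.80 (SE 0.36) with GR intact and 1.95 (SE 0.36) with GR deleted (difference 1.15, SE 0.49, unadjusted p = 0.0285, adjusted p = 1, edgeR). *Prex2* was at -1.05 (SE 0.97) and -5.20 (SE 1.03), a difference with an unadjusted p of 0.00581 and an adjusted p of 1 (edgeR). It was called lower in cKO than in KO when only these groups were fitted (log2 fold change -5.21, adjusted p = 0.0341, edgeR) and without WT 3 (-5.19, adjusted p = 0.0402, edgeR).

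The genes with the lowest p for that difference had effects of opposite sign in the GR states. They were picked by that difference in the same libraries, which favours opposite signs. *Vopp1* had 34 to 106 counts in cKO and 0 in all 3 KO libraries, but 0 to 10 in flox and 18 to 48 in WT (unadjusted p = 0.000159, edgeR). *Gm21738*, a predicted coding gene, was at -1.31 (SE 0.38) for flox over WT and 0.92 (SE 0.35) for cKO over KO. *March10* was seen in 2 flox libraries, with 82 and 20 counts, and in the KO libraries with 1 to 23, and was at 0 in all cKO and WT libraries. *Limd2* was at 1.72 (SE 0.69) and -1.63 (SE 0.63). Each of these 4 genes had an adjusted p of 1 with edgeR, while DESeq2 called all 4, with an adjusted p of 0.000251 for *Vopp1* and 0.0492 for *Gm21738*, *March10* and *Limd2*.

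**Figure D3:**
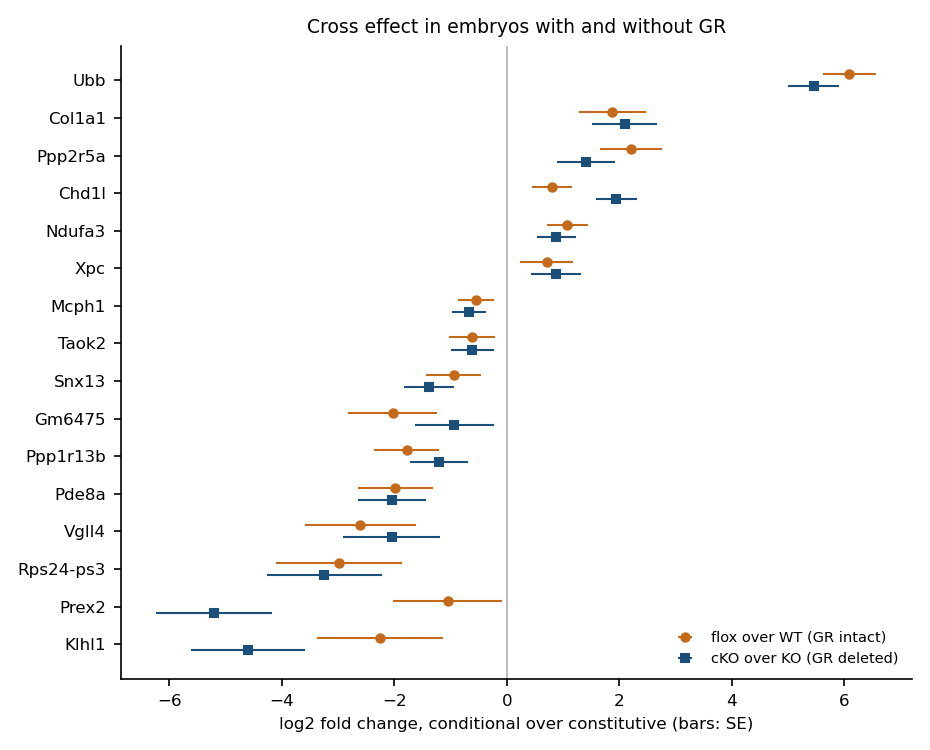
Log2 fold change of the conditional over the constitutive cross, with its SE as a bar, in GR-intact embryos (flox over WT, circles) and GR-deleted embryos (cKO over KO, squares), for the genes described in the text of lowest p or without overlap whose SE was at most 1.2 in both. All genes lie on the same side of 0 in both states, and the states are farthest apart for *Prex2*, *Klhl1* and *Chd1l*. The genes were picked by the comparison of the crosses over these same libraries, which favours the same side in both states.

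Gene lists that bear on tamoxifen were read against the 4.49% of all genes at an unadjusted p under 0.05 and the overall median of 0.02. None of 9 tested oestrogen receptor and response genes was at that level, their median was 0.23, and 1 of the 9 had a 95% interval within a log2 fold change of 1 either way. The lowest p there belonged to the growth factor *Igf1* (log2 fold change 2.04, SE 1.19) and the coactivator *Ncoa3* (0.55, SE 0.39). In sterol synthesis 1 of 19 was higher at that level (5.26%), *Tm7sf2*, a sterol reductase with 73 counts in the conditional cross and 1 in the constitutive cross (ratio 61.7, 95% counting interval 10.7 to 2470). *Dhcr7*, the last reductase of cholesterol synthesis, had 19 to 70 counts in the conditional libraries, median 52, and 0 to 52 in the constitutive libraries, median 6.5 (log2 fold change 2.02, SE 1.01, adjusted p = 1, edgeR). The list's median was 0.07. Of 14 xenobiotic and oxidative response genes none was at that level, and the median was -0.15; *Txnrd1*, a thioredoxin reductase, was at 1.30 (SE 0.77) and *Tiparp* at 0.23 (SE 0.23).

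Among 21 heat shock and HSP90 genes 1 was higher and 1 lower at an unadjusted p under 0.05 (9.52%, beside 4.49% of all genes). *Hspd1*, the mitochondrial chaperonin, was at 296 to 476 CPM in the conditional libraries and 445 to 707 CPM in the constitutive libraries, with a log2 fold change of -0.53 (SE 0.17, adjusted p = 0.867, edgeR). *Hspa8*, a constitutive chaperone of the HSP70 family, was uneven, with 58 to 529 counts in the conditional cross and, in the constitutive cross, 16 to 52 in 4 libraries and 320 and 495 in WT 2 and WT 3. Transcripts of other genes hold 71.5% of the windows in the last 300 bases of *Hspa8* and 39.2% of those of *Hspd1*. Immediate early genes had no member at an unadjusted p under 0.05, but 12 of 13 had a log2 fold change above 0, against 6832 of 13086 genes tested, with a median of 0.62 and a median SE of 1.17. *Btg2* had 7 to 214 counts against 9 to 64 and *Klf2* had 7 to 77 against 0 to 27. No member's 95% interval lay within 1 of 0. In the unfolded protein and amino acid response 1 of 13 was higher at an unadjusted p under 0.05 (7.69%, beside 4.49% of all genes). It was the transcription factor *Atf4* (0.47, SE 0.22, adjusted p = 1, edgeR), and *Dnajb9* was at -0.56 (SE 0.28). None of 19 p53 and apoptosis genes was at that level, with *Mcl1* at -0.43 (SE 0.26) and *Gadd45a* at 1.70 (SE 1.22). Of 14 glucocorticoid response genes, 1 was lower at that level (7.14%), *Zbtb16* (0 to 5 counts against 1 to 33). *Fkbp5*, a chaperone and widely used GR target, was at 0.48 (SE 0.28).

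All 9 tested oocyte markers had a 95% interval within a log2 fold change of 1, and their values ran from -0.26 to 0.15. *Sycp1*, the transverse filament of the synaptonemal complex, had 7212 to 17154 counts in the conditional libraries and 11096 to 18539 in the constitutive libraries, and *Smc1b*, the meiotic cohesin, had a log2 fold change of -0.26 (SE 0.16). Among 12 axis and synapsis genes 2 were at an unadjusted p under 0.05 (16.7%, beside 4.49% of all genes). The central element protein *Syce3* was higher (331 to 538 CPM against 214 to 385 CPM, log2 fold change 0.52, SE 0.19, adjusted p = 0.916, edgeR), and *Hormad1* was lower, an axis protein that marks unsynapsed chromosomes (-0.68, SE 0.27, adjusted p = 1, edgeR). None of 19 recombination genes was at that level, with *Brca2* at -0.39 (SE 0.20) and *Hfm1* at 0.42 (SE 0.30). *Stra8*, the gene of meiotic entry, was present in 4 conditional libraries, with 326 counts in flox 1 and 3 to 38 in the others, and in WT 3 alone of the constitutive cross, with 14. *Rarg*, a retinoic acid receptor of the same list, was at 0 to 9 counts against 0 to 18. Of 9 tested meiotic entry genes, *Stra8* was the only one at an unadjusted p under 0.05 (11.1%, beside 4.49% of all genes).

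Of 18 genes of oocyte differentiation and growth, 15 were above 0 with a median of 0.13, and 2 were higher at an unadjusted p under 0.05 (11.1%, beside 4.49% of all genes). *Lhx8*, a transcription factor of oocyte differentiation, had 535 to 1380 counts against 529 to 1005 (log2 fold change 0.47, SE 0.21), and *Zp2*, a zona pellucida protein, had 23 to 107 against 0 to 34 (1.52, SE 0.72), both with an adjusted p of 1 (edgeR). *Nanos3*, a germ cell survival factor, held 123 counts over 4 conditional libraries and 0 in the constitutive cross, at least 5.65-fold higher with the floor of 3 counts. *Zfp42*, of the same primordial germ cell list (8 tested), had 0 to 37 counts against 0 to 51. None of 22 germline RNA-binding and piRNA genes was at an unadjusted p under 0.05, with *Tdrd3* at -0.47 (SE 0.28) and *Tdrd5* at -0.34 (SE 0.26). In the mitotic cell cycle 2 of 22 were lower at that level (9.09%, beside 2.04% lower among all genes): the proliferation marker *Mki67* (44.3 to 101 CPM against 69.0 to 156 CPM, log2 fold change -0.86, SE 0.27, adjusted p = 0.856, edgeR) and the replication helicase subunit *Mcm3* (-0.43, SE 0.19, adjusted p = 1, edgeR). Of 11 tested replication-dependent histone genes 1 was lower (9.09%), *Hist1h2bc* (0 to 9 counts against 2 to 52), and *Hist1h4c* had 8 to 51 counts against 41 in KO 1 and 0 to 1 elsewhere. Among 19 imprinted genes 1 was higher (5.26%), *Dlk1* (0.45, SE 0.21, adjusted p = 1, edgeR), and *Peg3* was at -0.92 (SE 0.52).

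**Figure D4:**
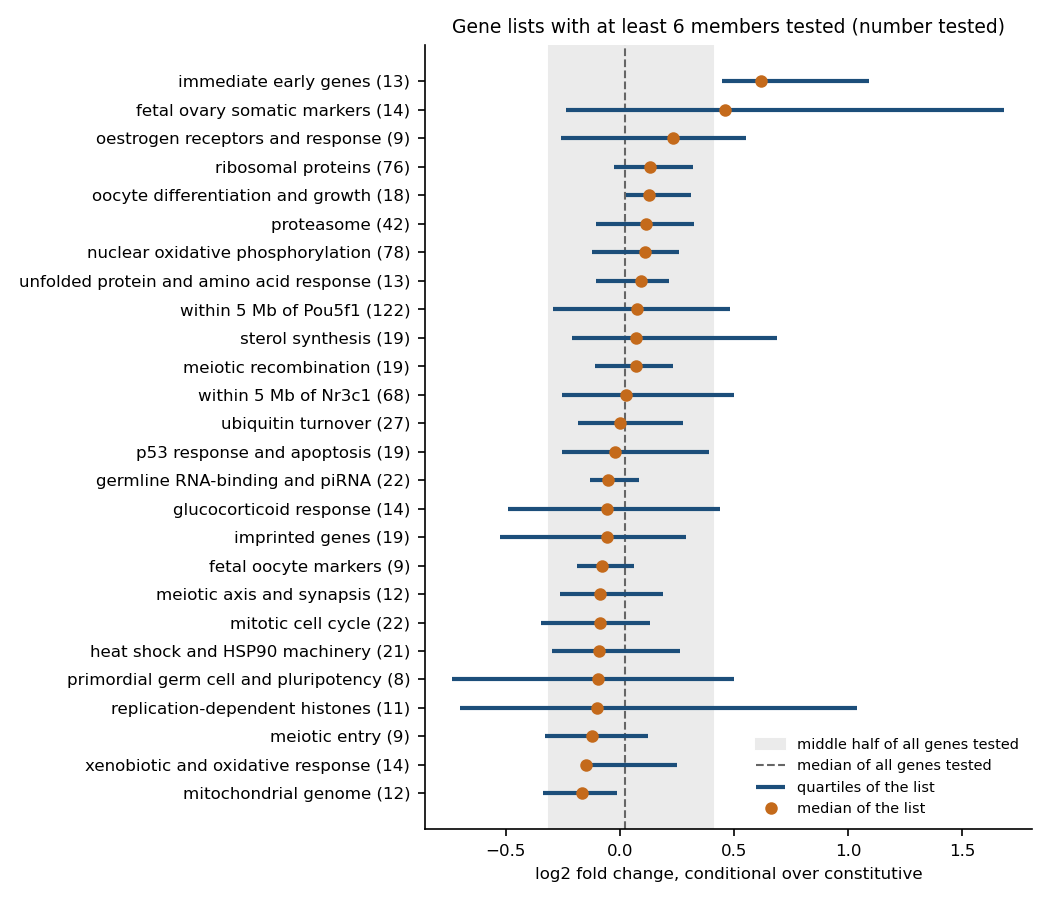
Median (circle) and quartiles (bar) of the log2 fold change, conditional over constitutive, in each gene list with at least 6 members tested, the number tested in brackets; the dashed line and shaded band are the median and quartiles of all genes tested. Immediate early genes have the highest median, 0.62, and the mitochondrial genome the lowest, -0.16; the medians of most lists lie near 0.02.

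Ribosomal protein genes had 5 of 76 higher and 0 lower at an unadjusted p under 0.05 (6.58%, beside 4.49% of all genes), with a median of 0.13. The lowest p belonged to *Rpl26*, which was at 1536 to 4179 counts in 5 conditional libraries and 18 and 81 in cKO 2 and cKO 4, and at 20 to 115 in 5 constitutive libraries and 4537 in WT 3. It was called once WT 3 was left out, which drops the single high constitutive library by construction. *Rpl21* followed at 0.90 (SE 0.33, adjusted p = 0.916, edgeR). Other genes hold 48.3% and 28.0% of the windows in the last 300 bases of *Rpl26* and *Rpl21*, so the division of reads between copies is uncertain for both. Nuclear genes of oxidative phosphorylation had 3 of 78 higher and 0 lower at an unadjusted p under 0.05 (3.85%, beside 4.49% of all genes). Among them were *Ndufa3* and the ATP synthase gene *Atp5g1* (1.39, SE 0.48, adjusted p = 0.89, edgeR). The list's median was 0.11. On the mitochondrial genome 0 of 12 tested genes were higher and 3 lower at that level (25%, beside 4.49% of all genes), and the median was -0.16. The mitochondrial ribosomal RNAs *mt-Rnr1* and *mt-Rnr2* had log2 fold changes of -0.75 (SE 0.25) and -0.49 (SE 0.17), each with an adjusted p of 0.89 (edgeR). Their exact permutation p-values were 0.0524 and 0.0571. The summed mitochondrial level ran from 61100 to 90200 CPM in the conditional libraries. In the constitutive libraries it ran from 53700 CPM in KO 1 to 135000 CPM in KO 3, the library farthest out on component 1.

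Markers of other cells that a sort can carry along were present at low levels, and they differed in part between the crosses. The summed oocyte markers were at 11300 to 15700 CPM in the conditional libraries and 13500 to 17800 CPM in the constitutive libraries. Endothelial markers summed to 43.2 to 104 CPM against 8.05 to 47.6 CPM, with 2 of 8 markers at 0 in every library and 2 tested. *Pecam1*, an adhesion molecule of endothelium that germ cells can also express, was a large part of these sums. It was at 33.8 to 81.2 CPM against 1.94 to 36.8 CPM. Its counts were 80 to 208 against 4 to 112 (log2 fold change 1.63, SE 0.53, adjusted p = 0.89, edgeR). *Tek*, the other marker tested, was at 0.61 (SE 0.99). Erythroid markers summed to 78.4 to 1260 CPM against 0.403 to 238 CPM, with 5 of 10 at 0 in each cross. The globin genes *Hbb-bs* and *Hbb-bt* were at 2.00 (SE 0.55) and 1.29 (SE 0.60), with the highest counts in flox 1 and 0 in KO 3, and 67.9% of the 3' windows of *Hbb-bs* occur in 1 other gene. Somatic cell markers together reached 162 to 398 CPM against 130 to 234 CPM, with all 18 seen in each cross. Of 14 tested, 1 was at an unadjusted p under 0.05 (7.14%, beside 4.49% of all genes), *Col1a1*. *Wnt4* was at 0 to 48 counts against 0 to 10.

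Macrophage markers summed to 0.404 to 45.5 CPM in the conditional libraries and 4.99 to 78.5 CPM in the constitutive libraries, and 5 of 10 were at 0 in every conditional library against 1 of 10 in the constitutive cross, and that 1 marker was *Lyz2*. *Cx3cr1* was at 1 to 40 counts against 0 to 112. Whether these other cells have a part in *Col1a1*, *Lyz2*, *Pecam1* or the globins was not tested, and in bulk samples fewer cells of a type and less RNA per cell cannot be told apart. The Y-linked genes held 3 to 20 counts in all per library, and *Xist* was at 0 in all 13; of the 3 tested genes of the X inactivation centre, *Rlim* was at -0.70 (SE 0.24, adjusted p = 0.89, edgeR) and *Ftx* and *Jpx* had an SE above 1.

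**Figure D5:**
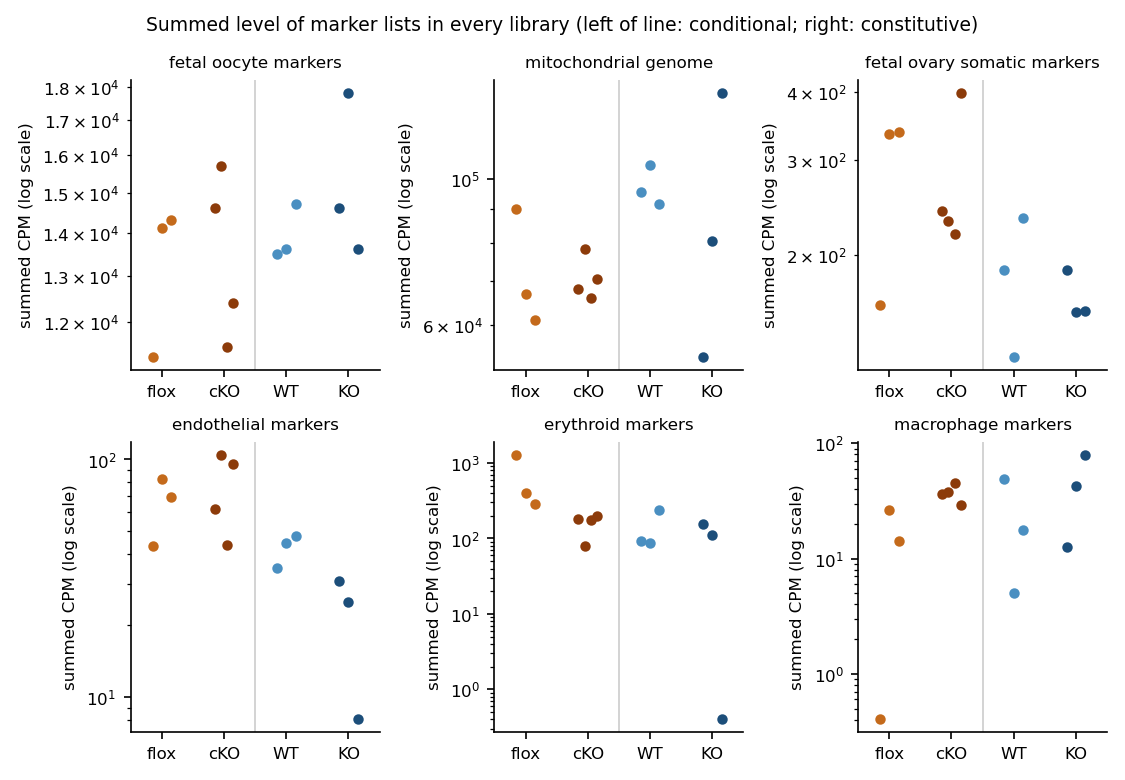
Summed level in CPM (vertical axes, log scale) of 6 marker lists in every library, by group; each point is a library and the line divides the conditional from the constitutive cross. Endothelial sums lie between 43.2 and 104 CPM in the conditional libraries and at or below 47.6 CPM in the constitutive libraries. A large part of them is *Pecam1*, which germ cells can also express. KO 3 and flox 1 hold the lowest and the highest erythroid sums.

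The engineered loci named in the labels were compared last. *Nr3c1*, which encodes GR, had 82 to 215 counts in the conditional libraries, median 124, and 54 to 216 in the constitutive libraries, median 97, a log2 fold change of 0.39 (SE 0.36, adjusted p = 1, edgeR); reads near the 3' end lie outside the deleted exon 3, so this level does not check the deletion. *Pou5f1* had 0 counts in 10 libraries and 26, 35 and 1 in cKO 2, flox 1 and flox 2, and was not tested. The Cre allele at *Pou5f1* was carried by cKO embryos, while the study calls flox embryos Cre-negative. Within 5 Mb of *Pou5f1*, 8 of 122 genes were higher and 1 lower at an unadjusted p under 0.05 (7.38%, beside 4.49%), with a median of 0.07. That median was 0.20 for flox over WT and 0.07 for cKO over KO, and an effect of the allele was not tested. Within 5 Mb of *Nr3c1* 0 were higher and 2 of 68 lower (2.94%), with a median of 0.03. *Tmem163*, named after its values were seen, gives its name to the ACTB-cre line in the study's allele list, the Cre transgene behind the exon 3 deletion of the constitutive cross. It had 114 to 623 counts in the conditional libraries, median 326, against 2, 137 and 245 counts in the KO libraries and 4, 2 and 159 in the WT libraries, a log2 fold change of 1.85 (SE 0.66, adjusted p = 0.89, edgeR). The ranges overlapped, and whether these embryos still carried the transgene was not tested. *Nnt*, whose deletion marks some substrains of laboratory mice, was at 0 in all 13 libraries and so told nothing of the backgrounds. By chromosome, the share of genes at an unadjusted p under 0.05 ran from 2.86% on chromosome 14 to 6.43% on the X among chromosomes with over 300 genes tested.

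Over all libraries the biological coefficient of variation (common value) was 0.856, and a gene's log2 fold change had a median SE of 0.58. For 3853 genes (29.4%) the 95% interval lay within a log2 fold change of 1 either way. Among the 3049 genes averaging 200 counts or more the median SE was 0.25, the interval lay within 1 for 2715 (89%), and 175 (5.74%) had an unadjusted p under 0.05. For those 2715 genes a difference of over 2-fold lies outside the interval, while for the 4592 genes (35.1%) with a library at 0 a difference was often not detectable at this depth.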

How the data were processed

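RNA from *Pou5f1*-GFP germ cells of 13 single E17.5 embryos was sequenced by 3' Tag-Seq. Per the labels and the study's methods, the authors aligned reads to mm10 with STAR 2.6.0 and counted them with featureCounts 1.6.3; the deposited values are raw counts for 55335 genes, over each gene's whole interval, so overlapping genes can lose reads. The annotation and strand setting are not given in the sources used here. The 2 deposited comparison tables (fold change, statistic and p-value per gene, made with edgeR 3.28.1 and limma 3.42.2) were not used. Gene symbols came from GENCODE M21 for 55154 genes.

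From the counts, edgeR 4.0.16 (filterByExpr with at least 10 counts, TMM, quasi-likelihood F test with GR status and cross) was fitted to all 13 libraries, which left 13086 genes; the effects within a GR status and their difference came from a fit of the 4 group means. P-values were adjusted over all genes (Benjamini-Hochberg) and called at 0.05. Single values were tested with the exact permutation test over 7 and 6 libraries. Library totals were 2048706 to 3674989 counts, and 1 count was worth 0.272 to 0.486 CPM. Gene lists, 33 in all, are described by counts and medians with no set test. Genes were named by rule: every called gene; the 10 of lowest p in each direction; up to 6 each without overlap and with a mean of at least 50 counts; 2 each of lowest p for the difference between GR states; 2 of lowest p from each list, or all of a list under 6; and *Nr3c1*, *Pou5f1* and *Nnt*. Members, lists and rules were chosen with earlier results of these data known. Shared windows were found by exact match, on the same strand, among GENCODE M21 transcripts. Alternatives covered RLE, upper-quartile and total scaling, DESeq2 1.42.0, limma 3.58.1 voom, other filters, a replicate block, thinning and leaving out each library; 2 were added after seeing the data, leaving out flox 1 with KO 3 and summing *Ubb* with the genes that share its windows. Values of some genes that these rules name are not reported here. The fit was tested on simulated data.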

Additional observations from a re-analysis of the deposited data

Results flagged for a closer look

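In 176 sets of libraries (a named gene or library measure within a cross), 15 held a library whose gap to its nearest neighbour, as a share of the set's range, was past Dixon's 95% limit; chance flags about 1 in 20. In the conditional cross the gap was 1 for *Frmd8* in cKO 1 and for *Pisd-ps2* in cKO 2, in both cases 1 count where the other libraries had 0. It was 0.763 for *Gm6475* and 0.631 for *Txnrd1*, each lowest in flox 1, 0.667 for *Mcl1*, highest in cKO 1, and 0.778 for *Rarg*, highest in flox 2. In the constitutive cross the gap was 1 for *Tm7sf2* in WT 2 (1 count, others 0) and for *Stra8* in WT 3 (14 counts, others 0). It was 0.667 for *Rps27a*, lowest in WT 2, 0.697 for *Btg2*, lowest in WT 3, and 0.702 for *Zp2*, lowest in WT 1. It was 0.854 for *Hist1h4c*, highest in KO 1, 0.663 for *Smc1b*, highest in KO 2, and 0.695 for *Hbb-bs*, lowest in KO 3. The library total of WT 3 was the highest of its cross, with a gap of 0.698.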

How the results depend on the processing

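The number of genes called between the crosses was 1, and it stayed at 1 with RLE, upper-quartile or total scaling, limma voom with or without quality weights, 4 group means, no GR covariate, thinning and a log2 fold change of at least 1. It was 30 with DESeq2 and 33 with no filter, 9 of them shared (30% and 27.3%), and 18 and 12 of the called genes had a library at 0. It was 0 where every library needed 10 counts, a filter that removed *Ubb* itself. It was 1 to 4 with 1 library left out, reaching 3 without KO 3 (*Ubb*, *Ppp2r5a*, *Mrvi1*) and 4 without WT 3 (*Ubb*, *Col1a1*, *Rpl26*, *1010001B22Rik*), and 3 without flox 1 and KO 3 together. Summing *Ubb* with its window-sharing genes gave 0 calls between the crosses, 0 for flox against WT and 0 for cKO against KO. Flox against WT gave 15 with no filter, 0 with 10 counts everywhere, and 1 to 4 with a library left out, the 4 (*Ubb*, *Acp1*, *Gm30162*, *Ablim1*) without WT 3. Comparing cKO with KO gave 53 with DESeq2, 28 with no filter, 0 with 10 counts everywhere, 2 with only these groups fitted (*Ubb*, *Prex2*), and 1 to 2 with a library left out (2 without KO 3, with *Nmnat3*, or WT 3, with *Prex2*). The difference between GR states gave 10 with DESeq2 and 8 with no filter. Apart from what each alternative's construction shows, the cause was not tested.

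With the replicate number as a block, 1 gene was called between the crosses, 1 for flox against WT, 1 for cKO against KO and 0 for the difference. The labels do not say that the numbers pair the samples. Correlations of same-numbered libraries ran from -0.0501 to 0.0636, and 3 of 13 libraries correlated best with their own number. With so few libraries and no litter given, these values cannot exclude shared litters.

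Over 85 genes and 2334 alternative values, 2260 kept their direction and side of the threshold, 34 newly passed it, 1 no longer did (*Ubb*, summed, 1.01) and 39 changed sign, in 8 genes whose main value had an SE as large as itself or larger. *March10* turned to 0.73 with 4 group means, 1.24 without the covariate and 0.24 with the block, and ran from -3.72 to 0.71 with a library left out. *Limd2* turned to 0.16 with voom, 0.31 with quality weights, 0.043 with 4 group means, 0.017 without the covariate and 0.10 without flox 1 and KO 3. It ran from -0.47 to 0.30 with a library left out. *Rps27a* turned to 0.048 with the block and ran from -0.42 to 0.17. *Cx3cr1* turned to -0.038 with voom and -0.66 without the covariate and ran from -0.32 to 1.15. *Ftx* turned to -0.58 with voom, -0.82 with quality weights and -0.65 without the covariate. *Jpx* turned to -0.026 with 4 group means, -0.17 after thinning and -0.21 without flox 1 and KO 3, and ran from -0.36 to 0.48. *Vopp1* ran from -0.007 to 4.27 and *Gm21738* from -0.39 to 0.088. The median over all genes was 0.02 to 0.08 under the scalings. The median SE was 0.58 over all genes and 0.25 at 200 counts or more.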

Other observations

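Genes outside the naming rule and chosen after their values were seen stood out with other settings. With no filter, edgeR called *Aen*, an exonuclease induced by p53, *Nmnat3*, a mitochondrial NAD synthesis enzyme, and *Tmem163*, a zinc transporter whose locus names the ACTB-cre line of the other cross, all higher in the conditional cross with log2 fold changes of 1.87, 1.94 and 1.83; with the filter their adjusted p-values were 0.844, 0.856 and 0.89. DESeq2 called *Yif1a* and *Zfp184*, whose libraries did not overlap between the crosses, with log2 fold changes of 5.81 and 3.29. Each had a library at 0, with a mean of 8 counts per library for *Yif1a* and 28.2 for *Zfp184*. With the filter edgeR called neither.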
